A study of Mus musculus with 6 samples.

Results

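The genes described here encode the NF-κB transcription factor subunits and the inhibitors that NF-κB itself switches on, measured in mouse haematopoietic stem and progenitor cells without and with Med12. Members were chosen by name, as every probe set assigned to exactly 1 of 10 symbols (Rel, Rela, Relb, Nfkb1, Nfkb2, Nfkbia, Nfkbie, Nfkbiz, Bcl3 and Tnfaip3). This gave 18 probe sets for 9 genes, out of 18193 genes that had a probe set of 1 symbol, and Nfkb1 was not analysed here. The tested cells came from Med12Flox;MxCre mice and are called Med12 KO, and the others came from mice labelled control, whose genotype and Cre status the labels do not give. All animals had the B6/129 background, and both kinds of cell were taken at 4 days from pI:pC injection. The interferon that this double-stranded RNA induces switches on Mx-Cre, so deletion is not restricted to blood cells, and the control cells are labelled with the same pI:pC time point. Bone marrow cells were sorted as lacking lineage markers and carrying c-Kit and Sca1, and each group had 3 arrays. Nothing says that the arrays came from separate animals, so p-values measure the spread between these samples, which may be technical.

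NF-κB proteins bind DNA as pairs drawn from 5 related subunits. In resting cells, IκB proteins hold these pairs in the cytoplasm, and an upstream kinase complex releases them when receptors for tumour necrosis factor, interleukin-1 or microbial products are engaged. Active NF-κB then transcribes several of its own subunits and inhibitors, which closes a feedback loop. In blood-forming tissue the pathway is known for its part in inflammatory responses and in lymphoid and myeloid cell survival.

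Med12 is part of the Mediator kinase module, and Mediator links transcription factors to RNA polymerase II. Its signal was 89.1, 100.4 and 86.4 in Med12 KO and 278.6, 837.4 and 441.6 in controls, a log2 difference of -2.17 (SE 0.38) with limma's adjusted p of 0.0796. The labels' direction held on every array, but the probe set may lie outside the deleted sequence, and then it does not check the deletion. Median signals were 16.5 to 21.3 on Med12 KO arrays and 26.7 to 26.9 on control arrays. Kit, Cd34 and Ptprc were well above 16 on every array, and the sort gene Ly6a was not analysed here. Kit is the measured sort marker. Kit and the genes Cd34, Ptprc and Flt3, which the labels do not name for the sort, were lower on every Med12 KO array without passing. Together the 4 had a summed signal of 1995.6 to 2732.3 in Med12 KO and 4760.9 to 6469.1 in controls. Flt3 had the largest difference of the 4, at -3.87 on the log2 scale (limma adjusted p = 0.0573). Among lineage markers, Ms4a1, Cd3g and Adgre1 stayed under 16 on every array, while Cd79b had 75.2 to 311.4 in Med12 KO and 207.6 to 304.0 in controls and Itgam reached 79.1 in Med12 KO and 114.6 in controls. The median log2 difference over all probe sets was -0.07 as deposited and 0.20 after each array was centred on its median, so a small difference can change sign with the scaling.

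Of the 18 member probe sets, only that of Rel passed limma's test at an adjusted p of 0.05, and it fell in Med12 KO. Over all probe sets 0.762% passed, 0.542% as lower in Med12 KO. By gene this is 1 of 9 members, beside 0.989% of all genes, each read by its probe set of highest mean signal. Both Nfkbie probe sets and all 3 Nfkbiz probe sets also had Med12 KO values entirely below control values, without passing. With Rel these made 6 of 18 probe sets (33.3%) whose groups did not overlap, against 20.9% of all probe sets, and 13.3% of all probe sets were separated as lower in Med12 KO. Probe sets of 1 gene share their transcript, so these 6 stand for 3 genes. The same 6 had an unadjusted p under 0.05, beside 15.7% of all probe sets. The median log2 difference was -0.12 over the 9 member genes and -0.05 over all genes.

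**Figure D1:**
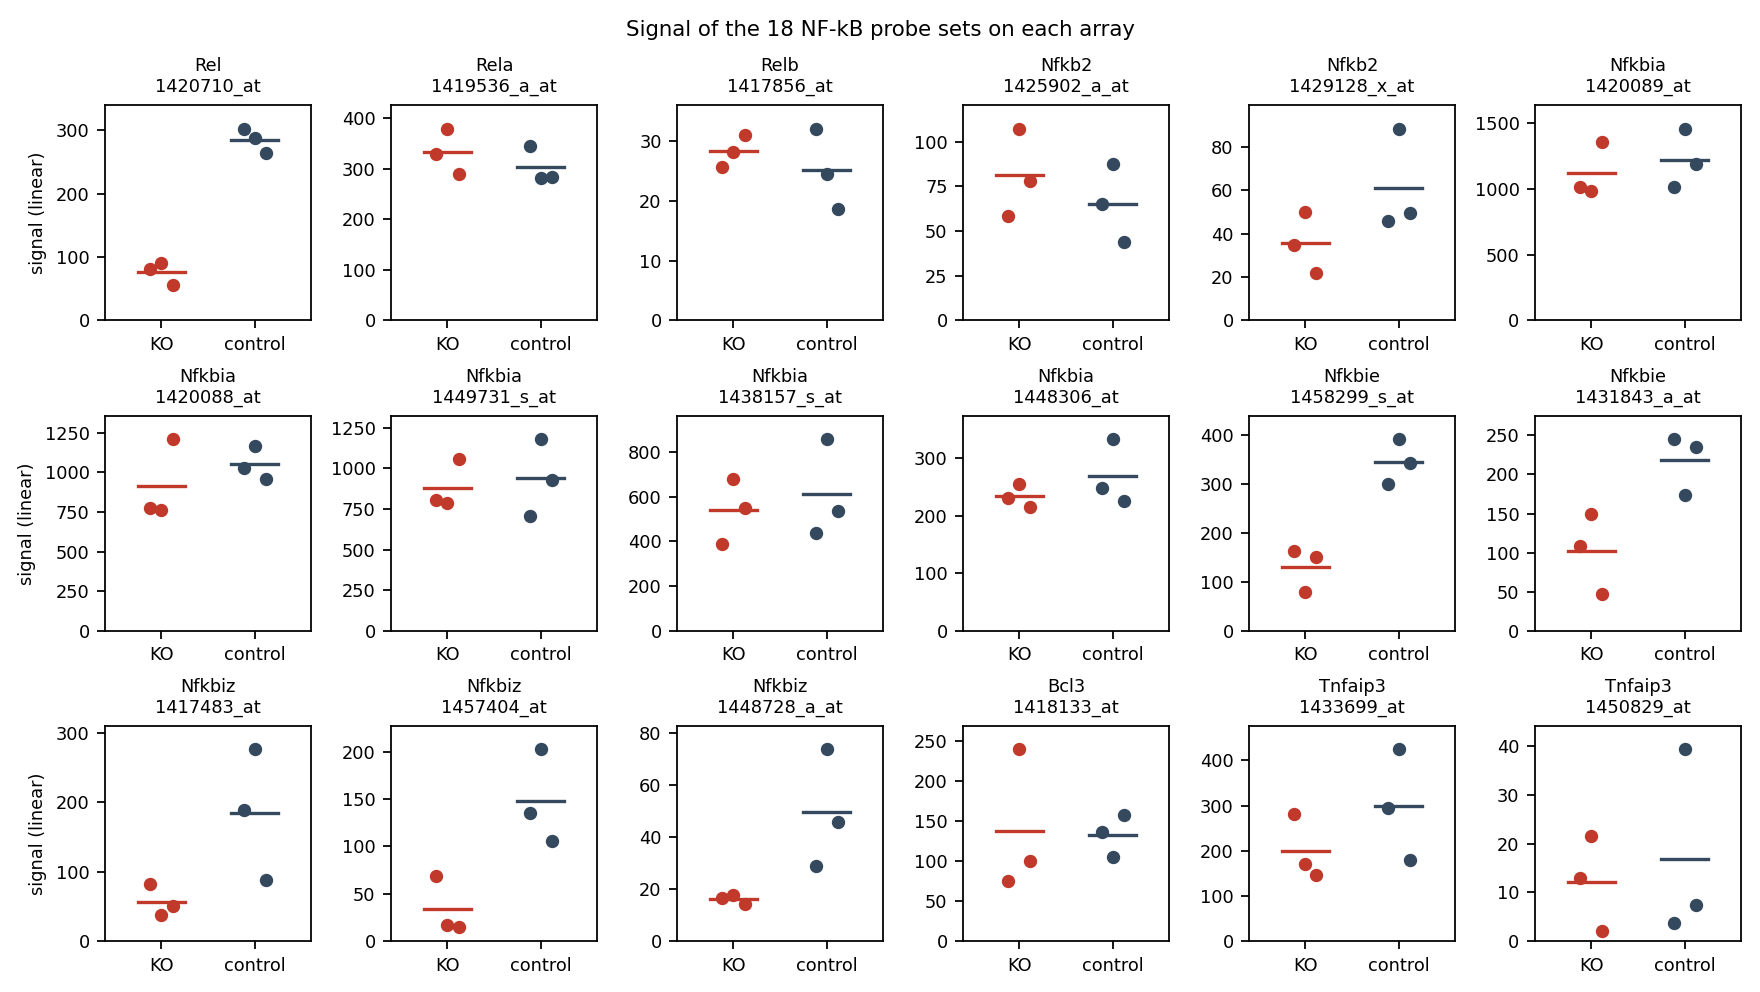
Deposited linear signal (y axis, from 0, own scale per panel) of the 18 probe sets on the 3 Med12 KO arrays (red, left) and the 3 control arrays (dark, right); each point is an array and each bar a group mean. The panels of Rel, Nfkbie and Nfkbiz show no overlap between groups, and the other panels show overlapping points.

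Rel encodes c-Rel, a subunit with a transactivation domain that is used most in lymphoid and myeloid cells. Its single probe set (1420710_at) had signals of 81.3, 90.6 and 55.6 in Med12 KO, against 302.5, 287.1 and 264.6 in controls. All 3 Med12 KO arrays lay below all 3 control arrays, and the control arrays lay close together. The means were 75.8 ± 18.1 in Med12 KO and 285 ± 19.1 in controls (SD, n = 3 each). The log2 difference, taken on log2(signal + 16) as everywhere here, was -1.73 (SE 0.18, 95% interval -2.18 to -1.28), with an adjusted p of 0.0314 by limma. On that scale the control level was 3.32 times the Med12 KO level. The size held without any 1 array, at -1.85 to -1.56, but the adjusted p then ranged from 0.0905 without control replicate 3 to 0.108 without Med12 KO replicate 2, so the call needed all 6 arrays. The call was also lost when signals under 16 were raised to 16 in place of the added 16, where the log2 difference was -1.94 and the adjusted p 0.0933. Over the 16 other settings tried on every probe set the difference stayed negative and the call was kept in 8, and it was -1.46 after median centring (adjusted p = 0.0207).

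**Figure D2:**
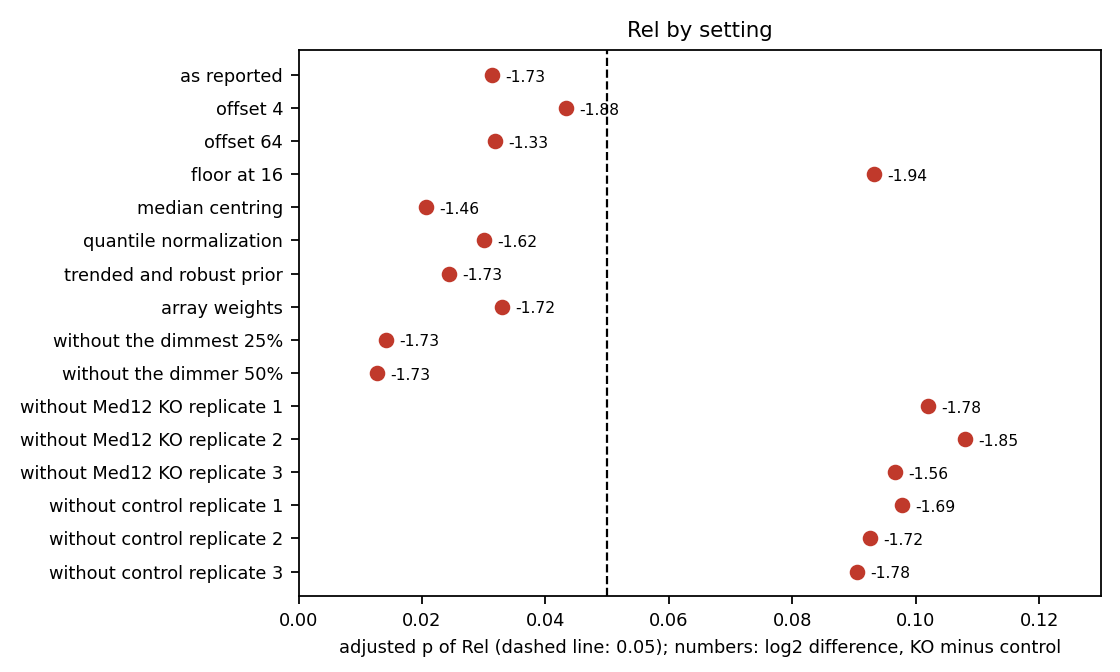
Adjusted p of Rel (x axis, linear, limma with Benjamini-Hochberg adjustment) under the reported setting and 15 of the 16 others (y axis; the replicate block is described among the processing alternatives); the number beside each point is the log2 difference, Med12 KO minus control. The dashed line is at 0.05, and points lie to its right without any 1 array and with the floor at 16, while every difference lies between -1.94 and -1.33.

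Rela encodes the main transactivating partner of the classical pathway. Its signal was 328.9, 380.0 and 290.0 in Med12 KO and 345.4, 283.0 and 283.1 in controls, so the groups overlapped. The log2 difference was 0.12 (SE 0.16, 95% interval -0.26 to 0.51; adjusted p = 0.774), an interval that leaves out any change as large as that of Rel. Set against each other on the same array, the log2 value of Rel minus that of Rela was -1.83, -1.89 and -2.10 in Med12 KO and -0.18, 0.02 and -0.09 in controls. The difference between groups in this quantity was -1.85. The groups were fully separated, and a two-sided exact permutation test gave p = 0.1, the smallest that 3 against 3 arrays allow. This pair was chosen after values were seen and Rel alone already separated the groups, so the test adds no separate support. Because both genes are read on the same array, this difference does not depend on scaling by a common factor, apart from the added 16.

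Relb and Nfkb2 encode the partners of the alternative pathway, in which the long Nfkb2 product acts as an inhibitor until it is cut. Relb was dim in both groups, with signals of 25.7, 28.1 and 31.1 in Med12 KO and 32.1, 24.5 and 18.7 in controls (log2 difference 0.12, 95% interval -0.27 to 0.51). At that signal the added 16 leaves little room for a difference to show. Nfkb2 was read by a pair of probe sets that differed in sign. The brighter one (1425902_a_at) had 58.2, 107.4 and 78.2 in Med12 KO and 65.1, 87.5 and 43.7 in controls, a log2 difference of 0.26 (95% interval -0.42 to 0.94; adjusted p = 0.722). The other (1429128_x_at), whose suffix marks probes that can match further sequences, was at -0.58 (95% interval -1.29 to 0.14; adjusted p = 0.418), and the mean of both probe sets was at -0.16. Neither direction was settled for Nfkb2, and the subunit genes other than Rel gave no call.

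The genes listed as feedback inhibitors include Nfkbiz and Bcl3, whose nuclear products work with NF-κB subunits and are not only inhibitors. None of the listed genes passed. All 13 of their probe sets had a lower log2 mean in Med12 KO as deposited, but 6 of 13 after median centring and 11 of 13 after quantile normalization. Over all probe sets 61.2% were lower in Med12 KO as deposited. The 6 that stayed lower after median centring were those of Nfkbie and Nfkbiz and the brighter one of Tnfaip3.

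Nfkbie encodes IκBε, an inhibitor that binds c-Rel and RelA complexes and is itself an NF-κB target. Its brighter probe set (1458299_s_at) had signals of 163.5, 78.4 and 150.7 in Med12 KO, against 299.1, 392.2 and 342.7 in controls. The second (1431843_a_at) had 109.1, 150.0 and 46.5 in Med12 KO, against 245.5, 173.8 and 235.3 in controls. Both put every Med12 KO array below every control array. The log2 differences were -1.34 (SE 0.28, 95% interval -2.02 to -0.67; adjusted p = 0.103) and -1.09 (SE 0.38; adjusted p = 0.251). Neither passed under any setting tried, where the adjusted p of the brighter probe set lay between 0.0545 and 0.243.

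Nfkbiz encodes IκBζ, a nuclear member of the IκB family that works with NF-κB on secondary inflammatory genes. The probe set of highest mean (1417483_at) had signals of 82.3, 37.3 and 50.7 in Med12 KO and 188.8, 276.1 and 87.5 in controls. Probe set 1457404_at had 68.4, 17.2 and 15.1 in Med12 KO and 135.7, 202.4 and 106.0 in controls. Probe set 1448728_a_at had 16.5, 17.6 and 14.5 in Med12 KO and 29.1, 73.8 and 45.8 in controls. On each of the 3 the groups did not overlap, although control replicate 3 came close to Med12 KO replicate 1 on the first. Their log2 differences were -1.38 (SE 0.43; adjusted p = 0.210), -1.85 (SE 0.44; adjusted p = 0.136) and -0.97 (SE 0.26; adjusted p = 0.165). In Med12 KO, 1448728_a_at lay near 16 on every array and 1457404_at on replicates 2 and 3, so their size follows the added offset. Between offsets of 4 and 64 it ran from -2.25 to -1.14 for 1457404_at and from -1.32 to -0.48 for 1448728_a_at. The controls varied more than for Rel, with a log2 SD of 0.76 on the first probe set against 0.09 for Rel.

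Nfkbia encodes IκBα, the classical inhibitor that is degraded on stimulation and quickly remade. Its 5 probe sets gave log2 differences from -0.23 to -0.07, with adjusted p values of 0.690 to 0.932, and all 5 turned positive, at 0.05 to 0.20, after median centring. The brightest (1420089_at) had signals of 1017.7, 988.1 and 1359.6 in Med12 KO and 1015.8, 1459.9 and 1186.6 in controls, with overlapping groups and a 95% interval of -0.61 to 0.37 for the log2 difference. On the same array, Nfkbie minus Nfkbia was -2.53, -3.41 and -3.04 in Med12 KO and -1.71, -1.85 and -1.75 in controls. The 2 inhibitor genes thus differed in their change by -1.22 on the log2 scale, with every Med12 KO array below the controls (two-sided exact permutation p = 0.1, the smallest possible). Nfkbiz minus Nfkbia differed between groups by -1.26 (exact permutation p = 0.2), with control replicate 3 at -3.54, below Med12 KO replicate 1 at -3.39. Both pairs were chosen after values were seen, and Nfkbie and Nfkbiz alone already separated the groups, so these tests add no separate support.

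**Figure D3:**
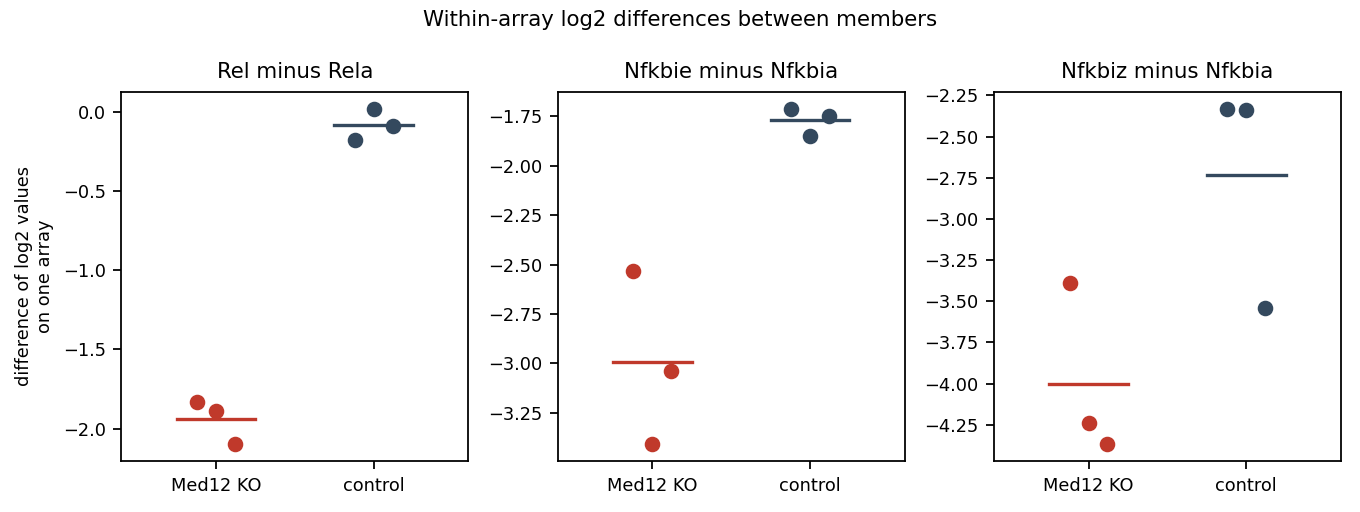
Difference between the log2 values of 2 members on the same array (y axis, own scale per panel, not starting at 0), for Med12 KO arrays (left) and control arrays (right); points are arrays and bars are means. Rel minus Rela and Nfkbie minus Nfkbia are lower on all 3 Med12 KO arrays, and Nfkbiz minus Nfkbia overlaps through control replicate 3.

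Bcl3 and Tnfaip3 complete the list of feedback inhibitors. Bcl3, a nuclear IκB relative that partners with DNA-bound subunits lacking a transactivation domain, had signals of 74.8, 240.2 and 100.8 in Med12 KO and 137.2, 104.9 and 158.4 in controls. Med12 KO replicate 2 was the highest of all 6 arrays and the other Med12 KO arrays the lowest, and the log2 difference was -0.08 (95% interval -1.07 to 0.91), or 0.19 after median centring and 0.05 after quantile normalization. Tnfaip3 encodes A20, the ubiquitin-editing enzyme that shuts down signalling below the receptors. Its brighter probe set (1433699_at) had 282.0, 170.3 and 145.8 in Med12 KO and 294.7, 424.3 and 180.1 in controls, overlapping, at a log2 difference of -0.53 (95% interval -1.43 to 0.38; adjusted p = 0.565). The second Tnfaip3 probe set (1450829_at) was dim, with means of 12.2 ± 9.67 in Med12 KO and 16.8 ± 19.6 in controls (SD, n = 3 each), and its direction turned with median centring (0.15) and quantile normalization (0.05).

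**Figure D4:**
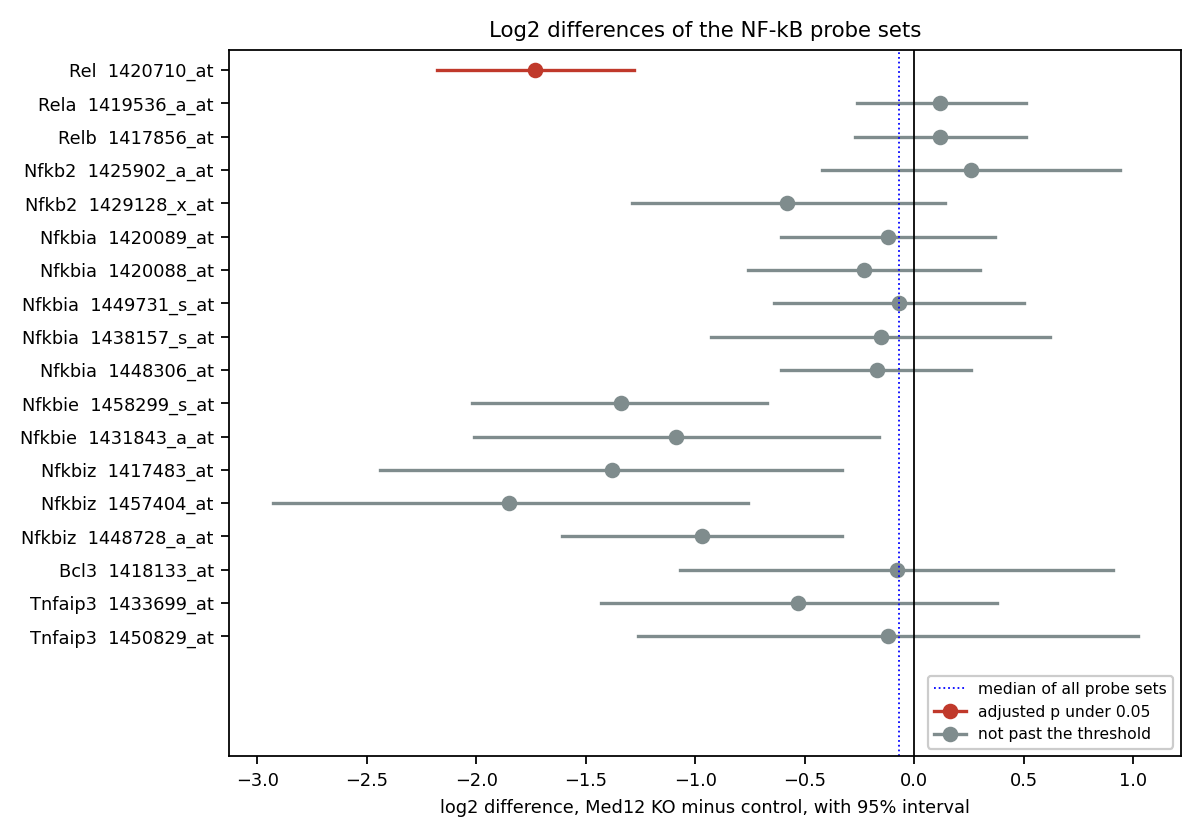
Log2 difference, Med12 KO minus control (x axis), of each member probe set (y axis), with limma's 95% interval; the red one passed an adjusted p of 0.05, and the dotted line is the median of all probe sets. The intervals of Rel, Nfkbie and Nfkbiz lie below 0 without adjustment for the number of probe sets, and those of the other probe sets include 0.

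Because NF-κB transcribes several of its own members, their promoters were searched for the consensus κB site on both strands, in the 250 bases before each RefSeq start site of GRCm38.p6. Windows were found for 7 of the 9 genes. Of all 32851 windows of that length 7.25% held a match, and of the 10 member windows 7 did. Some genes had several windows, and those of Nfkb2 partly overlap. By gene, a match was found in at least 1 window of Rel, Nfkb2, Nfkbia, Nfkbie and Tnfaip3, and in none of the windows of Rela or Bcl3. Genes with and without a difference thus held matches: Rel fell, Nfkbie was lower without passing, and Nfkbia overlapped between groups. These 3 windows are shown 5′ to 3′ on the gene's strand, with matches in capitals, to let a called member be read beside an inhibitor of each kind. The windows lie at chr11:23770970-23771219 (minus strand) for Rel, chr17:45555450-45555699 (plus strand) for Nfkbie and chr12:55492648-55492897 (minus strand) for Nfkbia.
Rel: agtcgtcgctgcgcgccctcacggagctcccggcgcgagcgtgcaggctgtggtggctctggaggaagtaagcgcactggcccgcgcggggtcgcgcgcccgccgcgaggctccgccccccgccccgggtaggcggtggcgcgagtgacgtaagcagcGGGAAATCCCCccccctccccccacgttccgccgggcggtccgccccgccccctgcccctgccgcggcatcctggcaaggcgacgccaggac
Nfkbie: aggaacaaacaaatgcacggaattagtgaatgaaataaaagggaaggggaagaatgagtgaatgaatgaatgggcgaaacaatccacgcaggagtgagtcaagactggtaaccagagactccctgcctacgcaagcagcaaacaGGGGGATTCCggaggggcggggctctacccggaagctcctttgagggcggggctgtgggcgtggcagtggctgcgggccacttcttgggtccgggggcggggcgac
Nfkbia: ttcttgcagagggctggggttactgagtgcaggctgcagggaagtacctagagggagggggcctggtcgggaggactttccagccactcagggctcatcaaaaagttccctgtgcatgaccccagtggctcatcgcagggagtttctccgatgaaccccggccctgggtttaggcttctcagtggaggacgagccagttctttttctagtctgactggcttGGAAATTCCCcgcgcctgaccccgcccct
The Rel match is a run that fits the consensus in a pair of overlapping frames, with its first base 92 bases before the start site. The Nfkbie match begins 106 bases and the Nfkbia match 29 bases before the start site. A match is a description of these letters and not evidence of binding.

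The other genes of the pathway were read by role, with 1 probe set per gene. Of 20 receptor and ligand genes, 1 fell, 0 rose and 19 did not pass, and the median log2 difference was -0.40, against -0.05 over all genes. The gene that fell was Il1r1, the interleukin-1 receptor, with signals of 73.2, 105.4 and 87.5 in Med12 KO and 244.5, 221.3 and 268.9 in controls (log2 difference -1.32; limma adjusted p = 0.0404). Tnfrsf1b, a tumour necrosis factor receptor, had 274.9, 183.5 and 142.8 in Med12 KO and 567.1, 840.8 and 828.0 in controls, and did not pass (-1.84; adjusted p = 0.0590); its dimmer probe set was at -0.45. The cytokine gene Il18 was at -1.28 (adjusted p = 0.0662), the microbial sensor gene Tlr2 at -1.09 (adjusted p = 0.106) and the B cell survival receptor gene Tnfrsf13c at -1.70 (adjusted p = 0.144). In all, 8 of the 20 had groups that did not overlap, 7 of them lower in Med12 KO, beside 23.4% of all genes separated in either direction.

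Adaptors and kinases, which carry the signal from receptors to IκB, had a median log2 difference of 0.00 over 29 genes, of which 1 fell, 0 rose and 28 did not pass. The gene that fell was Ikbke, an IκB kinase relative also used in interferon induction, with signals of 36.6, 25.6 and 35.9 in Med12 KO and 111.8, 128.6 and 103.6 in controls (log2 difference -1.43, SE 0.15; limma adjusted p = 0.0314). Ikbkg, the regulatory subunit of the classical kinase complex, was at -0.62 (adjusted p = 0.240), and its other 5 probe sets lay between -0.26 and 0.19. Map3k3 (-0.61), Traf1 (-0.77) and Map3k14, the kinase of the alternative pathway (-0.51), overlapped between groups. Another 7 genes of the list, among them Chuk and Ripk1, were not analysed here.

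Of 19 other inhibitor genes none passed in limma's test, and 5 had groups that did not overlap, 4 of them lower in Med12 KO. This share, 26.3%, is near the 23.4% of all genes. The median log2 difference of these inhibitors was -0.24. Tnip2, which binds A20, was at -0.62 (adjusted p = 0.183), the RNA-degrading enzyme gene Zc3h12a at -1.54 (adjusted p = 0.193) with a second probe set at -0.05, Tnfaip8l2 at -0.61 and the linear ubiquitin protease gene Otulin at -0.71. Nkiras2, which slows IκB degradation, was higher on all 3 Med12 KO arrays (0.38; adjusted p = 0.266).

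Among 41 textbook NF-κB targets 1 fell, 0 rose and 40 did not pass, and the median log2 difference was -0.43. Groups did not overlap for 11 of them (26.8%), near the 23.4% of all genes, with 8 lower and 3 higher in Med12 KO. The brightest of these 3 was Tnfaip2, at 1.18 (limma adjusted p = 0.211) by 1 of its 3 probe sets. Of the 41, 30 had a lower log2 mean in Med12 KO as deposited (73.2%), beside 57.8% of all genes. Some targets on either side stayed under 16 on every array, such as Csf3 and Nos2 among the lower and Ptgs2 among the higher. The chemokine gene Ccl3 fell, with signals of 26.6, 36.8 and 16.9 in Med12 KO and 639.2, 2027.5 and 775.6 in controls (log2 difference -4.60; limma adjusted p = 0.0304). Its neighbour in function Ccl4 had 54.7, 37.1 and 11.1 in Med12 KO and 307.9, 638.0 and 274.1 in controls and did not pass (-3.08; adjusted p = 0.0588). Sdc4 (-1.89), Ccl5 (-1.70) and the adhesion gene Vcam1 (-1.99) had groups that did not overlap and adjusted p values of 0.124 to 0.151. Sdc4 and Vcam1 lay near background in Med12 KO, at 20.2, 2.0 and 0.6 for Sdc4 and 0.3, 4.9 and 0.3 for Vcam1, so their size follows the added offset: between offsets of 4 and 64 it ran from -2.98 to -0.89 for Sdc4 and from -3.35 to -0.90 for Vcam1. The second Sdc4 probe set was at -0.97 with overlapping groups, and the other Vcam1 probe sets were at -0.61 and -0.16. Of the pathway genes, 5 stand on more than 1 list. Like Rel, the 3 called pathway genes needed all 6 arrays: without any 1 array the adjusted p was 0.0937 to 0.142 for Il1r1, 0.0860 to 0.117 for Ikbke and 0.0609 to 0.117 for Ccl3. The call of Il1r1 was also lost with an offset of 4 (adjusted p = 0.0691), quantile normalization (0.0541) and a trended and robust prior (0.0569), that of Ikbke with quantile normalization (0.0535) and that prior (0.0601), and that of Ccl3 with an offset of 64 (0.0527). With signals floored at 16 none of the 104 pathway genes passed. By direction, 0.638% of all genes were called as lower in Med12 KO, and all 3 pathway calls were.

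**Figure D5:**
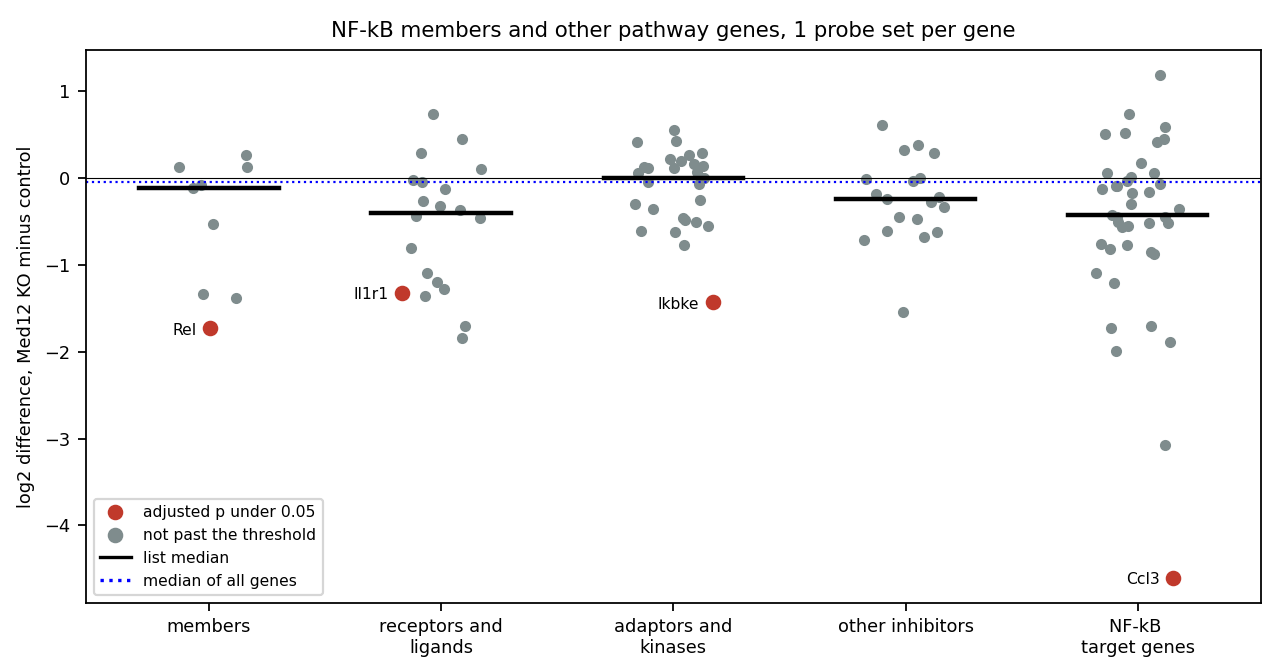
Log2 difference, Med12 KO minus control (y axis), for the 9 members and the other pathway genes by role (x axis), 1 point per gene; red points passed an adjusted p of 0.05, black bars are list medians and the dotted line is the median of all genes. The red points are Rel, Il1r1, Ikbke and Ccl3, and the list medians run from -0.43 to 0.00.

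The summed signals of several marker lists of other cell types also differed between the groups, although few single markers passed. They did not overlap for the monocyte and macrophage, dendritic, neutrophil, erythroid, mast cell and endothelial lists, and overlapped for the B cell, T and NK cell, megakaryocyte and stromal lists. Of 9 monocyte and macrophage markers, 8 were lower in Med12 KO, 2 of them called (Csf1r and Ccr2, each by its brightest probe set). The summed signal of the 9 was 428.9 to 852.1 in Med12 KO and 2304.9 to 2984.9 in controls. Most of it was Lyz2 and Csf1r. Of the 8, Cx3cr1, Itgam, Cd14 and Adgre1 overlapped between groups. Dendritic markers summed to 41.3 to 149.0 in Med12 KO and 728.1 to 1217.0 in controls (4 of 6 lower), of which most was Flt3, already given. The other 5 dendritic markers summed to 23.1 to 30.7 in Med12 KO and 71.0 to 150.1 in controls. Neutrophil markers summed to 61.2 to 491.5 in Med12 KO and 576.0 to 1177.5 in controls (6 of 7 lower), and B cell markers to 110.0 to 356.8 in Med12 KO and 328.6 to 691.1 in controls (4 of 5 lower). Erythroid markers summed to 1450.9 to 2047.1 in Med12 KO and 315.4 to 655.2 in controls, with 3 of 4 higher, and all 5 mast cell markers were higher (1 called), at 1041.1 to 1253.8 in Med12 KO and 254.7 to 442.0 in controls. Of the erythroid markers 2, Klf1 and Epor, were called as higher and gave most of the erythroid sum. The other one counted as higher, Hba-a1, was at 0.03 on the log2 scale. All 5 megakaryocyte markers were higher (1 called), at 4317.0 to 5350.1 in Med12 KO and 2903.6 to 4342.5 in controls. Most of that sum was Pf4, whose log2 difference was 0.1. Only the called marker, Itga2b, had groups that did not overlap. T and NK cell markers summed to 1051.9 to 1385.0 in Med12 KO and 988.2 to 1156.6 in controls. Most of this was Nkg7, at 995.3 to 1342.4 in Med12 KO and 917.9 to 1110.2 in controls. Endothelial markers summed to 395.1 to 569.4 in Med12 KO and 571.7 to 877.4 in controls (4 of 5 lower), so these sums nearly met. Most of the control sum was Pecam1, and Tek went the other way, higher on every Med12 KO array (1.35; limma adjusted p = 0.185). Stromal markers summed to 70.3 to 119.1 in Med12 KO and 60.4 to 75.7 in controls. Of the blood cell lists, 1 or 2 markers each stayed under 16 on every array (Adgre1, Mmp8, Ms4a1, Cd3g, Xcr1, Cd209a and Hba-a1), except on the megakaryocyte and mast cell lists, and no marker was at 0. Other markers of these lists exceeded 16 on some or all arrays. Lyz2 had 540.9, 507.0 and 277.4 in Med12 KO and 1007.4, 967.5 and 1035.1 in controls, S100a9 had 9.0, 131.8 and 199.4 in Med12 KO and 220.3, 590.1 and 296.5 in controls, and Slc4a1 had 11.8, 13.9 and 13.2 in Med12 KO and 23.2, 185.8 and 69.3 in controls. The part of these cell types in the differences of Rel, Nfkbie and Nfkbiz was not tested. In sorted bulk cells, fewer cells of a type and less RNA per cell cannot be told apart.

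The genes whose profile lay nearest that of Rel were found by the root mean square distance between centred log2 profiles over the 6 arrays, among 9095 genes with a mean signal above the median. They were Sting1 (0.154 on the log2 scale), Rab31 (0.173), Adgrg3 (0.178), Lax1 (0.185) and Csf3r (0.187). That distance includes the gap between groups, so genes picked as nearest to Rel share its fall through the way they were picked. All 5 were thus lower on every Med12 KO array, at log2 differences of -1.68, -1.46, -1.38, -1.95 and -1.85. Among the members, Nfkbie was the nearest to Rel at 0.483, with 370 of the 9095 genes nearer, followed by Nfkbiz at 0.542. Rela lay at 0.932 and Nfkbia at 0.883. These distances largely restate the log2 differences of the members given above.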

How the data were processed

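Each array gave 1 value per probe set. The authors deposited linear signal intensities. The submitters' processing notes name RMA, which gives log2 values, so how these intensities were made is not given in the sources used here; after trimming 2% at each end, every array averages 150. Per the labels' protocols, 5 ng of RNA was amplified before labelling. The 64 control probe sets were left out and 45037 tested, and all 6 columns were used. Of these probe sets 34945 had 1 gene symbol, 932 several and 9160 none; the 9 member symbols matched RefSeq (GRCm38.p6).

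Values were taken as log2(signal + 16) and fitted in R 4.3.3 by limma 3.58.1, using lmFit then eBayes (two-sided tests, 4 residual and 1.96 prior degrees of freedom, Benjamini-Hochberg over all probe sets, threshold 0.05). The steps were tested on simulated data. Figures used matplotlib 3.10.9. Named were all members, then per list the called genes and the smallest p up to 5 genes; Med12; and the 5 nearest profiles to Rel. Members, lists and the added 16 were chosen with earlier results of these data known, and the within-array differences after values were seen. Alternatives were other offsets, a floor, scalings, priors, array weights, filters on dim probe sets, a replicate block, a threshold of 0.10, and leaving out each array. The number of arrays limits the precision. No arrays were identical; log2 correlations across probe sets were 0.965 to 0.972 within Med12 KO, 0.949 to 0.959 within controls and 0.922 to 0.951 between groups.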

Additional observations from a re-analysis of the deposited data

How the results depend on the processing

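The number of probe sets called over the whole table was 343 and moved to 84 with the floor at 16, 693 with median centring, 712 and 763 without the dimmest 25% and the dimmer 50%, and 1159 at a threshold of 0.10. Median centring raised the share of calls higher in Med12 KO to 62.2%, against 28.9% as deposited and 43.0% after quantile normalization. Without any 1 array limma called 0 to 10 probe sets. The member count of 1 became 0 with the floor at 16 (5 at an unadjusted p under 0.05) and 0 to 0 without any 1 array, where 4 to 6 had an unadjusted p under 0.05. The pathway list count of 3 became 0 with the floor, 5 with median centring, 1 with quantile normalization, 6 without the dimmest 25%, 6 without the dimmer 50%, 6 at a threshold of 0.10, and 0 to 0 without any 1 array.

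The replicate block gave 0 calls over all probe sets (6752 at an unadjusted p under 0.05), 0 members (7 unadjusted; limma's adjusted p of Rel was 0.153) and 0 pathway genes. Deviations of same-numbered arrays correlated at 0.019, 0.0193 and 0.00193, and 0 of 6 arrays correlated best with its own number. No pairing by number was thus seen over all probe sets. A batch that acts on part of the probe sets was not tested. Of 292 member values under an alternative, 264 kept their direction and side of the threshold, 8 of Rel lost the call and 20 turned, all of them uncalled. The turned values after median centring were 0.15, 0.05, 0.20, 0.12 and 0.10 for Nfkbia, 0.19 for Bcl3 and 0.15 for the dim Tnfaip3 probe set, of which the last 2 were at 0.05 and 0.05 after quantile normalization. Without any 1 array the values ran from -0.26 to 0.02, -0.26 to 0.11 and -0.36 to 0.11 for 3 Nfkbia probe sets, -0.52 to 0.23 for Bcl3 and -0.41 to 0.33 for that Tnfaip3 probe set, and the mean over both Nfkb2 probe sets was -0.16. The causes were not tested.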
